A study of Mus musculus with 18 samples.

Results

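The transcription factors (TFs) and nuclear proteins that maintain pluripotency were examined as a group of 10 genes, *Pou5f1*, *Nanog*, *Sox2*, *Esrrb*, *Zfp42*, *Klf4*, *Tbx3*, *Tfcp2l1*, *Dppa3* and *Prdm14*. They were chosen by name for what is known of them, although earlier results of these data were known at the time. All 10 were found among the 20310 genes of the table of stages and among the 20495 gene entries of the table of fibroblasts. The study followed blood formation from mouse embryonic stem cells (ESCs) in culture and compared it with the reprogramming of mouse embryonic fibroblasts (MEFs) to blood cells. Cells of strain 129 were used throughout.

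For the stages, 1 ESC line carrying a GFP reporter in the *Brachyury* gene (also called *T*) was grown on MEFs and differentiated through embryoid bodies. Undifferentiated cells were labelled ESC, GFP+ Flk1- cells were mesoderm (MES), GFP+ Flk1+ cells were hemangioblasts (HB), CD41+ cells were hematopoietic progenitors (HP) and CD11b+ cells were macrophages (MAC). In the paper hemogenic endothelium (HE) comes between HB and HP. It has no sample here, so a change from HB to HP passes over that stage. The labels name 2 replicates per stage, which the deposited table combines into 1 value. The MEFs came from embryos of day 14.5, either wild type or carrying rtTA with a doxycycline-inducible *Tal1* cassette (iTal1-2A-GFP), and the labels do not say which library came from which. They were left untreated (uFIB) or received Scl and Lmo2 (SL), Scl, Fli1, Gata2 and Lmo2 (SFGL) or Fli1, Gata2 and Lmo2 (FGL), where Scl is another name of *Tal1*. The MEFs were sampled after 12 or 21 days, with 1 library for each condition and day.

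Expression was given as FPKM, the number of fragments normalised for transcript length and for the aligned reads of the library, so that genes can be compared per length. With 1 value per stage and 1 library per MEF condition, no difference has a replicate error and none was tested. The depth behind a value is unknown from FPKM. A gene is called lower or higher here when its FPKM differed at least 2-fold after adding 0.001, with at least 1 FPKM in the higher sample. Log2 changes are on log2(FPKM + 1), which understates changes of low genes. Stages were compared with stages and MEFs with MEFs, because the 2 tables were normalized separately. The submitters' notes name other tools for ESC than for the later stages, and whether the ESC values were made in the same way is not given in the sources used here. Each comparison with ESC rests on this.

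POU5F1 (OCT4) and SOX2 bind DNA side by side and, with NANOG, keep each other's genes active in pluripotent cells. ESRRB, KLF4, TBX3, TFCP2L1, ZFP42 (REX1), DPPA3 and PRDM14 belong to the naive state of ESCs, which LIF signalling through STAT3 helps to sustain. When the epiblast implants, most naive genes are silenced while *Pou5f1* stays active, and *Nanog* is expressed again around the primitive streak, where mesoderm forms. Several of the factors have further roles outside pluripotency, SOX2 in neural and glial cells, KLF4 in epithelia, monocytes and fibroblasts, and TBX3 in the heart and the limbs.

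The promoter stretches in which letters known to be bound by these factors occur are shown first, since the core factors act on one another's genes. RefSeq start sites on GRCm38.p6 were available for 7 of the 10 genes, with 10 entries in all, and the 250 bases upstream of each start were searched on both strands. The searched letters, chosen after the sequences had been seen, were the POU octamer part ATGCAAA, the joint SOX and POU site, in which CATTGT and ATGCAAA are 1 base apart, and the KLF site CCACACCC. In the sequences below, each written 5′ to 3′ on the strand of its gene, capitals mark the match.
*Nanog*, joint SOX and POU site, chr6:122707391-122707450 (+ strand): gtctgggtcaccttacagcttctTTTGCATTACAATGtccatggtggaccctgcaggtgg
*Sox2*, octamer part, chr3:34649873-34649925 (+ strand): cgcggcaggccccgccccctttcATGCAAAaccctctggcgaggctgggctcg
*Zfp42*, octamer part, chr8:43307165-43307217 (- strand): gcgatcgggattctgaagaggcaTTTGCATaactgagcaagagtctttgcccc
*Zfp42*, KLF site, chr8:43307054-43307107 (- strand): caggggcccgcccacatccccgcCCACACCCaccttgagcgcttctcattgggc

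The joint site was found in 2 of 32851 promoter entries of the mouse (0.00609%), and both were entries of *Nanog*, whose 2 start sites share it at 75 and 151 bases upstream. ATGCAAA occurred in 4.12% of all promoter entries, and among the 7 genes in those of *Nanog*, *Sox2* and *Zfp42*. CCACACCC occurred in 3.20% of entries, and among the 7 genes in that of *Zfp42*. The letters are a description of these windows and show no binding. Because they were chosen after the sequences had been seen, the shares are no test of the matches. The promoters also differed in base composition. GC made up 74.0% of the window of *Klf4* and 72.0% of that of *Sox2*, with 32 and 27 CpGs, against medians of 52.4% and 6 CpGs over all entries, whereas those of *Nanog* held 52.0% and 57.6% GC with 3 and 2 CpGs.

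As sums, the markers of mesoderm, blood and macrophages were highest in MES, HP and MAC. The summed FPKM of 7 mesoderm markers was 15.5 in ESC, against 360 in MES and 316 in HB. *Kdr*, which encodes Flk1, was at 2.15 FPKM in MES and 77.6 in HB. The 7 blood markers summed to 209 FPKM in HP and 131 in MAC, against 31.6 or less in ESC, MES and HB. The 5 macrophage markers summed to 1105 in MAC against 16.0 or less in the other stages. The 10 fibroblast markers summed to 8.55 FPKM in ESC and ranged there from 0.0344 to 2.89 FPKM, in cells that were grown on MEFs. Their sum was 65.6 FPKM in HP, against 13.6 or less in the other stages, and the part of other cells in it was not tested.

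All 10 pluripotency genes reached 1 FPKM in ESC, 9 did so in MES and 6 in HB, but only 2 in HP and 1 in MAC. Together they summed to 675 FPKM in ESC, of which *Pou5f1* made up 56.7%. The sum was 43.9% of the ESC value in MES, 14.3% in HB and 0.564% in HP. In ESC the order from the highest level down was *Pou5f1*, *Zfp42*, *Sox2*, *Nanog*, *Esrrb*, *Tfcp2l1*, *Dppa3*, *Tbx3*, *Klf4* and *Prdm14*. Which neighbours in this order differ beyond the spread of replicates cannot be said, since no spread is given.

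**Figure D1:**
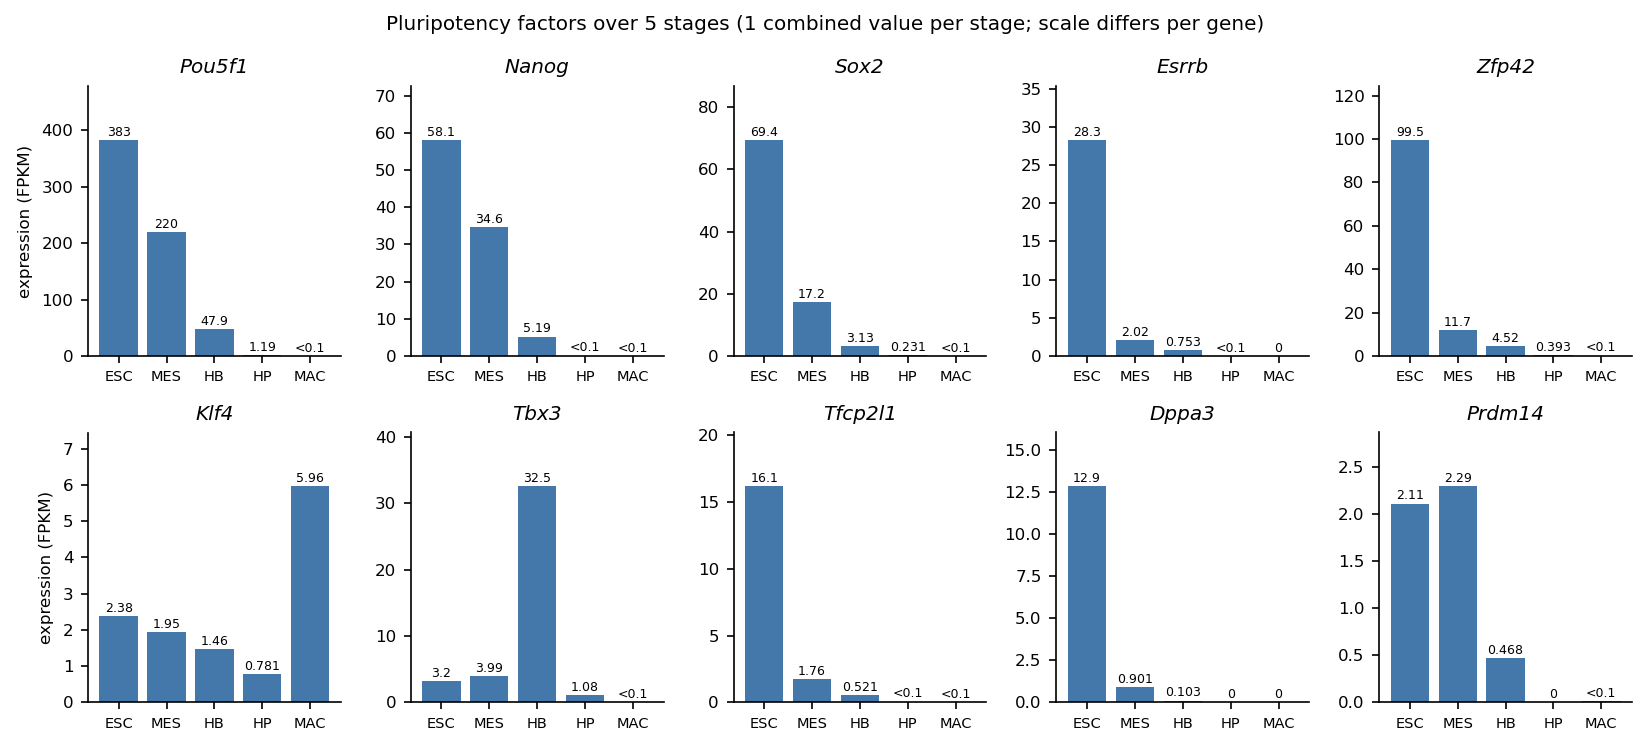
Expression of the 10 pluripotency genes in FPKM (vertical axes, each with its own scale from 0) in the 5 stages (horizontal axes); each bar is the authors' 1 combined value, without error. In 7 genes the highest bar is ESC, whereas *Klf4* is highest in MAC at 5.96 FPKM, *Tbx3* in HB at 32.5 FPKM and *Prdm14* in MES at 2.29 FPKM.

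Of the core factors, *Pou5f1* and *Nanog* stayed high into mesoderm, while *Sox2* was called lower. *Pou5f1* (chr17:35506032-35510777, + strand), the POU factor without which pluripotency is lost, was at 383 FPKM in ESC, then 220 in MES, 47.9 in HB and 1.19 in HP, and 0.0931 in MAC. It was the gene ranked 29 from the top in ESC and 59 in MES, and still ranked 794 in HB. Of its 2 start sites in the table, 1 carried 382 of the 383 FPKM in ESC and all of its FPKM in HP, while the 0.0931 FPKM in MAC came from the other site alone.

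*Nanog* (chr6:122707568-122713778, + strand), the homeodomain factor of the core, was at 58.1 FPKM in ESC, then 34.6 in MES, 5.19 in HB and 0.0734 in HP, and 0.0159 in MAC. *Sox2* (chr3:34650005-34652460, + strand), the partner of POU5F1, was at 69.4 FPKM in ESC, then 17.2 in MES, 3.13 in HB and 0.231 in HP, and 0.0163 in MAC. In MES, *Pou5f1* kept 57.3% and *Nanog* 59.6% of the ESC level, but *Sox2* only 24.8%. The level of *Pou5f1* was 6.60 times that of *Nanog* in ESC and 6.34 times in MES, and 9.24 times in HB.

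*Esrrb*, *Zfp42*, *Tfcp2l1* and *Dppa3*, 4 of the 7 naive genes, kept less of their ESC level in MES than any core gene. *Esrrb* (chr12:86361117-86521628, + strand), an orphan nuclear receptor that acts downstream of WNT signalling in ESCs, was at 28.3 FPKM in ESC, then 2.02 in MES, 0.753 in HB and 0.00200 in HP, and was listed at 0 in MAC. *Zfp42* (chr8:43295067-43307009, - strand), a zinc finger gene used as a reporter of the naive state, was at 99.5 FPKM in ESC, then 11.7 in MES, 4.52 in HB and 0.393 in HP, and 0.0633 in MAC. The 2 genes thus lost most of their level at the first step, *Esrrb* to 7.16% and *Zfp42* to 11.8% of ESC.

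*Tfcp2l1* (chr1:118627945-118685168, + strand), a target of LIF and STAT3, was at 16.1 FPKM in ESC, then 1.76 in MES, 0.521 in HB and 0.0548 in HP, and 0.0300 in MAC. *Dppa3* (chr6:122626424-122630271, + strand), whose product protects DNA methylation in the early embryo, was at 12.9 FPKM in ESC, against 0.901 in MES and 0.103 in HB, and was listed at 0 in HP and MAC. In MES these were 10.9% and 7.01% of the ESC level. The level of *Nanog* was 2.05 times that of *Esrrb* in ESC and 17.1 times in MES.

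*Prdm14*, *Tbx3* and *Klf4* did not follow the other naive genes. *Prdm14* (chr1:13113428-13127163, - strand), which represses FGF signalling and DNA methyltransferase genes in ESCs and germ cells, was at 2.11 FPKM in ESC, against 2.29 in MES and 0.468 in HB, was listed at 0 in HP and was at 0.0153 in MAC. Its level in MES was 109% of that in ESC, at values low in both. *Tbx3* (chr5:119670669-119684601, + strand), a T-box factor, was at 3.20 FPKM in ESC, then 3.99 in MES, 32.5 in HB and 1.08 in HP, and 0.0495 in MAC. Its HB level was 1017% of that in ESC, and only *Pou5f1* of the 10 was higher in HB.

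*Klf4* (chr4:55527137-55532475, - strand), a Krüppel-like zinc finger factor, was at 2.38 FPKM in ESC, then 1.95 in MES, 1.46 in HB and 0.781 in HP, and 5.96 in MAC. It was the only 1 of the 10 at 1 FPKM or more in MAC, with the other 9 at or below 0.0931. The upper quartile of all genes above 0 was 18.0 FPKM in MAC against 10.2 in ESC. Scaled to the same upper quartile, *Klf4* in MAC was at 3.37 FPKM, which is still above HP but less than 2-fold above ESC.

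**Figure D2:**
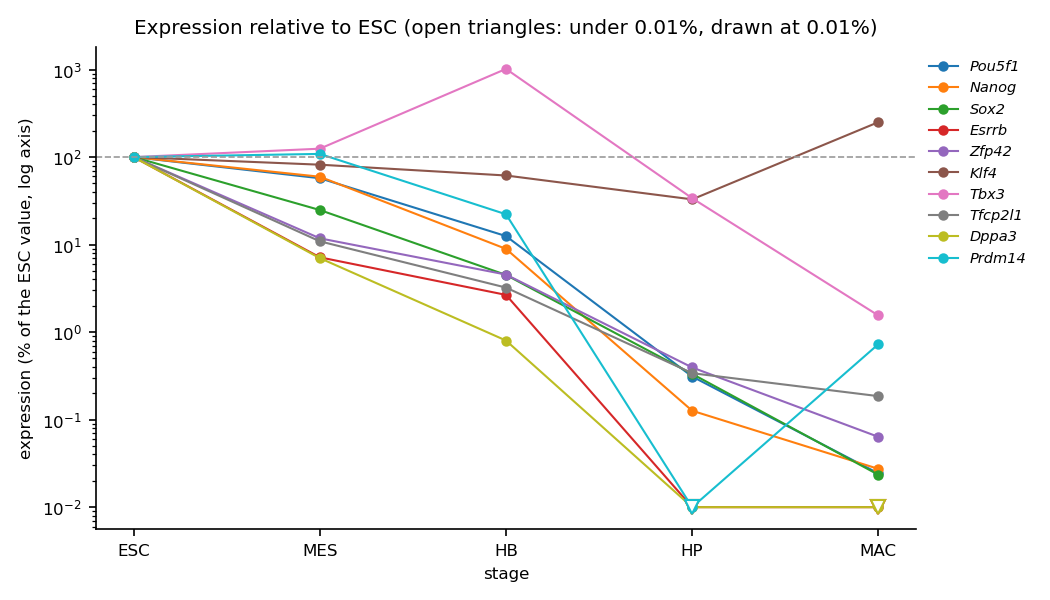
Expression of each of the 10 genes as a percent of its own value in ESC (vertical axis, logarithmic) in the 5 stages (horizontal axis); points are single combined values without error, and open triangles mark values under 0.01% of ESC, including those listed at 0. In MES *Pou5f1* and *Nanog* lie near 60%, *Sox2* at 24.8%, and *Esrrb*, *Zfp42*, *Tfcp2l1* and *Dppa3* between 7.01% and 11.8%, while *Tbx3* peaks in HB.

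From ESC to MES, 5 of the 10 genes were called lower and 0 higher, against 12% of the 10605 genes at 1 FPKM or more that were lower and 11.3% that were higher. The 5 were *Sox2*, *Esrrb*, *Zfp42*, *Tfcp2l1* and *Dppa3*, with log2 changes from -1.95 to -3.28 and a median over the 10 genes of -1.37, where the median of all tested genes was 0.00. *Pou5f1* and *Nanog* changed by -0.80 and -0.73 and were not called.

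From MES to HB, 9 of the 10 reached 1 FPKM and 7 of these were called lower, against 6.3% of genes, and *Tbx3* was called higher, against 4.05%. In contrast to the first step, *Pou5f1*, *Nanog* and *Sox2* were all among them, with folds of 4.58, 6.67 and 5.52 between the FPKM values and log2 changes of -2.17, -2.52 and -2.14. *Tbx3* differed by 2.75. At this step the median change of all tested genes was 0.13 as deposited and -0.01 after scaling to the same upper quartile. Relative to the median as deposited, *Pou5f1* changed by -2.30 and *Tbx3* by 2.62.

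The next comparison passes over HE. From HB to HP, 6 of the 10 reached 1 FPKM and 5 of these were called lower, against 12.8% of genes, and 0 were higher, against 12.3%. They were the core genes, *Zfp42* and *Tbx3*. The FPKM of *Pou5f1* was 40.2-fold lower in HP, that of *Nanog* 70.7-fold and that of *Sox2* 13.5-fold, and *Tbx3* changed by -4.01 on the log2 scale. The remaining genes started below 1 FPKM in HB, except *Klf4*, which was 1.87-fold lower.

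From HP to MAC, 3 of the 10 reached 1 FPKM, of which *Pou5f1* and *Tbx3* were called lower, against 16.9% of genes, and *Klf4* was called higher by 1.97, against 38% of genes. The median of all tested genes was 0.45 as deposited and -0.17 when scaled, and relative to it *Klf4* was higher by 1.52 and 1.50. From ESC to MAC 9 of the 10 were lower and *Klf4* was higher, against 25% and 40.4% of genes. Over this span the median changes of all genes were 0.43 and -0.25, the log2 change of *Klf4* was 1.04 and 0.37, and relative to the medians it was 0.61 and 0.62.

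In bulk samples, fewer cells of a type and less RNA per cell cannot be told apart, so that a level in MES or HB may be shared by all cells or held by some. Primordial germ cells also express several of the 10 genes, among them *Pou5f1*, *Nanog*, *Prdm14* and *Dppa3*. All 6 germline markers were above 0 in the first 3 stages, and their sum was 17.2 FPKM in ESC, against 32.5 in MES and 6.06 in HB, with *Dnd1* at 3.92, 18.0 and 1.84. Their part in the levels of the pluripotency genes was not tested. The 6 primitive endoderm markers, some of which also mark mesoderm and its heart derivatives, summed to 29.0 FPKM in ESC, against 39.7 in MES and 60.2 in HB. Of these, *Lamb1* was at 24.6, 31.3 and 25.2 FPKM and made up most of the sum in ESC and MES. *Gata4* was at 2.64, 4.34 and 24.4 FPKM and moved with *Tbx3*, and the part of such cells in it was not tested.

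The profiles most like those of the core genes, by Euclidean distance on log2(FPKM + 1) over the 5 stages, were those of other genes high in ESC. Nearest to *Pou5f1* were *Dppa5a*, an RNA-binding protein gene of ESCs (distance 1.04), *Trh*, which encodes thyrotropin-releasing hormone (1.59), and *Tdgf1*, the NODAL co-receptor (2.52). Nearest to *Nanog* were *F2rl1*, a protease-activated receptor gene (0.98), *Nodal* (1.11) and *Sox2* (1.17), and *Nodal* itself was at 28.0 FPKM in ESC and 35.9 in MES. Nearest to *Sox2* were the tight junction gene *Cldn6* (0.77), *Zfp42* (0.86) and *Sfn* (1.02). The neighbours of *Tbx3*, looked up after its values were seen, were *Gata4* (0.72), *Cd40* (1.10) and *Msx2* (1.12), all highest in HB.

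The other genes of the pluripotency network also differed among each other in their course. Of 25 such genes, 24 reached 1 FPKM in ESC or MES, and 15 of them were called lower and 0 higher, against the 12% and 11.3% of all genes given above. From MES to HB 7 of 21 were lower and 1 higher, against 6.3% and 4.05%, and from HB to HP 10 of 17 were lower and 1 higher, against 12.8% and 12.3%. The median log2 changes of those at 1 FPKM or more were -1.35, -0.28 and -0.79, beside 0.00, 0.13 and -0.13 over all genes. *Nr0b1*, a repressor that works with the core factors, went from 24.2 FPKM in ESC to 1.20 in MES, *Tcl1*, an activator of AKT, from 9.99 to 0.281 and *Klf5* from 31.1 to 4.65. By contrast, *Dppa5a* was at 207 and 156 FPKM and *L1td1*, an RNA-binding protein gene, at 97.7 and 76.3. The chromatin corepressor *Trim28* was the highest of the 25, at 479 FPKM in ESC, 230 in MES and 42.1 in MAC.

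Among known targets of the core factors, more were called lower at the second step than at the first. Of 11 targets, 5 were called lower and 2 higher from ESC to MES, and 9 lower and 0 higher from MES to HB, steps at which 12% and 6.3% of all genes were lower and 11.3% and 4.05% higher. From HB to HP 9 of the targets reached 1 FPKM, of which 7 were lower and 1 higher, against 12.8% and 12.3%. The median changes of the targets at 1 FPKM or more were -0.68, -1.65 and -1.38, beside medians over all genes of 0.00, 0.13 and -0.13. *Fgf4*, which carries a SOX2 and POU5F1 enhancer and drives exit from the naive state, went from 26.3 FPKM in ESC to 2.89 in MES, close to the step of *Esrrb*. The NODAL inhibitors *Lefty1* and *Lefty2* were instead highest in MES, at 41.1 and 40.9 FPKM against 9.74 and 10.7 in ESC. *Tdgf1* was at 100 FPKM in ESC, against 92.2 in MES and 64.6 in HB, and at 0.138 in HP.

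Genes of the primed, post-implantation epiblast were not a uniform group. From ESC to MES 11 of the 12 reached 1 FPKM, of which 4 were called higher and 1 lower, against 11.3% and 12% of all genes. Their median change was -0.10, and that of all 12 was 0.22. From MES to HB 5 of 10 were lower and 0 higher, against 6.3% and 4.05%, with a median of -0.89. *Fgf5*, a classical marker of the primed epiblast, was at 2.42 FPKM in ESC, against 17.2 in MES and 1.81 in HB, and *Zic2* at 2.41, 13.5 and 7.49. *Dnmt3b*, the de novo DNA methyltransferase that PRDM14 represses, was at 42.6, 74.6 and 36.6 FPKM. *Pou3f1*, a POU factor of the primed epiblast, was highest in ESC, at 13.2 FPKM against 2.21 in MES.

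Of 7 genes of the LIF axis, 6 are in the table of stages, and *Stat3* was not analysed here. From ESC to MES 2 of the 6 were called lower and 2 higher, against 12% and 11.3% of all genes. *Socs3*, a target of STAT3 that inhibits the pathway, was at 16.2 FPKM in ESC, 2.35 in MES and 12.8 in MAC, while *Il6st*, the shared receptor chain gp130, was at 6.42, 15.5 and 112.

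Relatives of the 10 genes covered other stages. Of 23 relatives, 14 reached 1 FPKM in ESC or MES, of which 3 were called lower and 1 higher, against 12% and 11.3% of all genes. *Klf2* and *Klf5*, which overlap with *Klf4* in ESC function, were at 7.28 and 31.1 FPKM in ESC, both above *Klf4* at 2.38. *Klf1*, the red cell factor, was at 28.4 FPKM in HP and at most 0.339 in the other stages, and *Klf6* was at 163 FPKM in MAC. *Tbx20*, a heart T-box factor, was highest in HB at 11.3 FPKM, like *Tbx3*. *Yy1*, a close relative of *Zfp42*, stayed between 26.1 and 30.8 FPKM in all 5 stages, and *Esrra* was at 3.01 FPKM in ESC and 20.8 in MAC, opposite in direction to *Esrrb*.

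**Figure D3:**
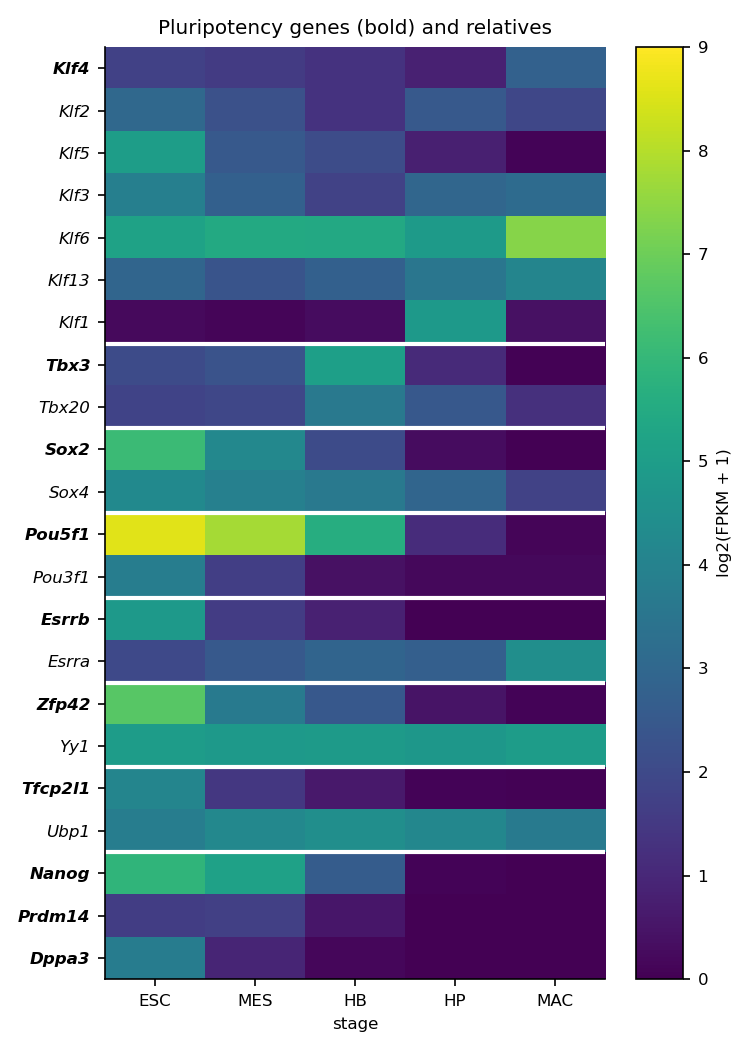
Heat map of log2(FPKM + 1) (colour scale) in the 5 stages (horizontal axis) for the 10 pluripotency genes (bold) and those of their relatives that reached 5 FPKM in a stage, in blocks by family; single combined values without error. *Klf4* is darker (lower) than *Klf5* in ESC and *Klf6* in MAC, *Tbx3* and *Tbx20* are brightest in HB, and *Yy1* and *Ubp1* vary little.

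Some values may hold reads of other loci. Of the 50-base windows of the transcripts, 16.5% for *Dppa3*, 10.1% for *Pou5f1* and 8.52% for *Zfp42* also occur in GENCODE transcripts of other genes, among them the pseudogenes *Dppa3-ps* and *Zfp42-ps1*, against 4.61% for *Nanog* and 1.01% or less for the other 6. The antisense gene *Gm19553* overlaps 317 of the 2248 exon bases of *Pou5f1*, and *Tbx3os1* overlaps 115 of the 6624 of *Tbx3*. The methods describe coverage tracks for each strand, but whether the FPKM used strand is not given in the sources used here, and without it reads of the 2 strands there cannot be told apart. *Sox2* lies inside *Sox2ot* on the same strand and shares 0 exon bases with it.

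In the MEFs, 7 of the 10 genes were at or near 0. *Pou5f1* and *Prdm14* were listed at 0 FPKM in all 8 libraries. *Nanog*, *Esrrb*, *Zfp42*, *Tfcp2l1* and *Dppa3* were each below 0.2 FPKM in every library, the highest being *Nanog* at 0.170 in the day 12 library labelled FGL. The factors named in the labels were also checked. On both days *Tal1* and *Lmo2* were 56.1-fold or more above uFIB in SL and SFGL. In SFGL *Gata2* was 61.3-fold or more and *Fli1* 9.22-fold or more above uFIB. In SL, whose label names neither, *Gata2* was 29.3-fold or more and *Fli1* 11.4-fold or more above it. The day 12 library labelled FGL held 7.04 FPKM of *Tal1*, which its label does not name, against 0.0414 in uFIB. The day 21 library labelled FGL held 3.35 FPKM of *Fli1* against 3.02 in uFIB, which runs against the label. Introduced and endogenous transcripts cannot be told apart in these values.

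*Sox2* was expressed in untreated MEFs and was lower in SL and SFGL. It was at 9.80 FPKM in uFIB, against 1.26 in SL, 0.384 in SFGL and 4.60 in the library labelled FGL at day 12. At day 21 it was at 12.3 FPKM in uFIB, against 2.92 in SL, 1.16 in SFGL and 11.4 in the library labelled FGL. The lowest values were those of SFGL on both days, and the library labelled FGL was near uFIB at day 21. As a percent of uFIB of the same day, *Sox2* was at 12.8% in SL, 3.93% in SFGL and 47.0% in the library labelled FGL at day 12, and at 23.7%, 9.39% and 92.1% at day 21.

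*Klf4*, which fibroblasts are known to express, was at 15.7 FPKM in uFIB, against 8.74 in SL, 8.40 in SFGL and 19.0 in the library labelled FGL at day 12, and at 15.2, 13.9, 9.35 and 16.3 at day 21. It differed by less than 2-fold from uFIB in every library. *Tbx3* was at 5.03 FPKM in uFIB, against 1.61 in SL, 1.12 in SFGL and 4.93 in the library labelled FGL at day 12, and at 3.58, 2.03, 1.73 and 3.77 at day 21. Its values in SL and SFGL were below those of uFIB and FGL on both days.

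In each MEF library 55.8% to 57.1% of all genes reached 1 FPKM. Only 3 of the 10 genes, *Sox2*, *Klf4* and *Tbx3*, reached 1 FPKM in the MEFs and could be called. At day 12, 2 of these 3 (*Sox2* and *Tbx3*) were called lower in SL, against 18.2% of the 12332 genes at 1 FPKM or more, and the same 2 in SFGL, against 21.5%. *Sox2* alone was lower in FGL at day 12, against 1.19% of genes. At day 21 *Sox2* was lower in SL, against 15.7%, and *Sox2* and *Tbx3* in SFGL, against 20.2%, and 0 of the 3 were lower in FGL, against 0.984%. No comparison called any of the 3 higher, against 16.3% and 14.6% of genes in SL, 16.9% and 16.5% in SFGL and 3.91% and 1.15% in FGL at day 12 and day 21. The libraries of a day share 1 uFIB library.

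**Figure D4:**
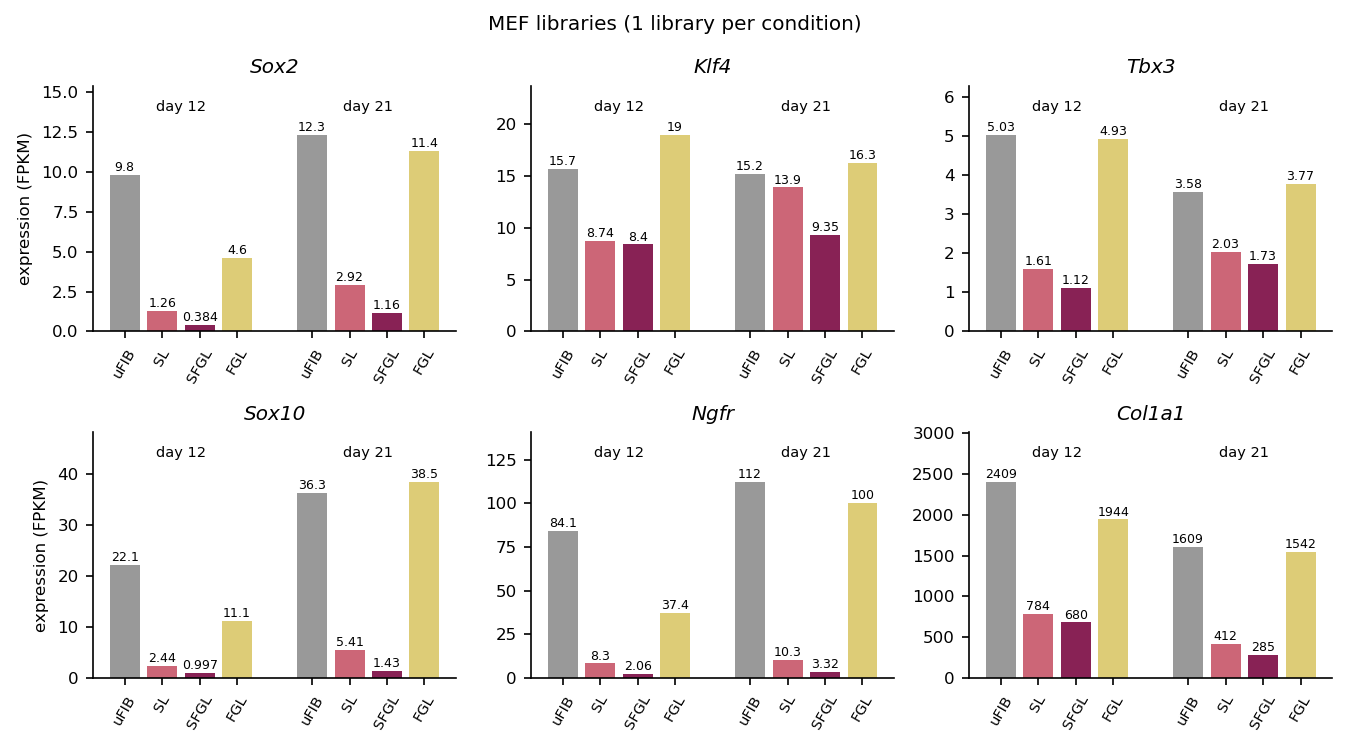
Expression in FPKM (vertical axes from 0, each with its own scale) of *Sox2*, *Klf4* and *Tbx3* and, below, of the neural crest and glial genes *Sox10* and *Ngfr* and the fibroblast gene *Col1a1* in the 8 MEF libraries (horizontal axes, day 12 at the left, day 21 at the right); each bar is 1 library without error. *Sox2*, *Sox10* and *Ngfr* are highest in uFIB and lowest in SFGL at day 12, and at day 21 uFIB and FGL stand above SL and SFGL in all 6 genes.

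Markers of other cells moved with *Sox2*. SOX2, SOX10 and FOXD3 are known from neural crest and its glial progeny. *Foxd3*, which is also a pluripotency gene, was at 7.23 FPKM in uFIB, against 0.741 in SL, 0.155 in SFGL and 3.74 in the library labelled FGL at day 12, and at 13.5, 3.61, 1.36 and 14.7 at day 21. A list of 7 neural crest and glial genes was therefore added after these values had been seen. Its sum was 160 FPKM in uFIB, against 19.5 in SL, 8.97 in SFGL and 92.5 in the library labelled FGL at day 12, and 213, 27.9, 10.7 and 198 at day 21. Of its genes *Sox10* was at 22.1 FPKM and *Ngfr*, the nerve growth factor receptor, at 84.1 in uFIB at day 12. At day 12, 7 were called lower in SL, 7 in SFGL and 5 in FGL, against 18.2%, 21.5% and 1.19% of all genes. At day 21, 5, 7 and 0 were lower, against 15.7%, 20.2% and 0.984%. In FGL at day 21, 1 was higher, against 1.15%.

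As a percent of uFIB, the sum of the 7 genes was 12.2% in SL, 5.62% in SFGL and 57.9% in the library labelled FGL at day 12, and 13.1%, 5.04% and 93.2% at day 21. The 10 fibroblast markers summed to 32.9%, 26.9% and 85.1% of uFIB at day 12 and to 26.6%, 21.1% and 100% at day 21, near those of *Tbx3* at day 12 but below them at day 21. The 6 neural markers summed to 28.1%, 19.1% and 59.4% at day 12 and to 78.1%, 52.9% and 135% at day 21. On both days SFGL was lowest and FGL highest of the 3 conditions with added factors in all 3 sums, as in *Sox2* and *Tbx3*. The part of fewer such cells in the lower *Sox2* was not tested.

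Of the 25 other network genes, 12 reached 1 FPKM in SL or uFIB at day 12, of which 4 were called lower and 5 higher, against 18.2% and 16.3% of all genes. In SFGL 4 of 12 were lower and 4 higher, against 21.5% and 16.9%. The median changes of these genes were 0.25 and 0.17, beside -0.03 over all genes in both. *Tcf7l1*, a repressor of the WNT pathway, was at 17.3 FPKM in uFIB and 5.49 in SL, and *Zfp57*, which protects imprints, at 11.2 and 3.45. *Klf5* was at 3.38 FPKM in uFIB and 17.0 in SL, and *Klf2*, a factor of endothelium and blood as well as of ESCs, at 5.73 and 13.9. At day 21, 2 of 12 were called lower and 4 higher in SL, against 15.7% and 14.6% of all genes. In SFGL 3 of 11 were lower and 4 higher at day 21, against 20.2% and 16.5%. *Tcf7l1* was again called lower and *Klf5* higher in SL at day 21. *Zfp57* and *Klf2* were not called there, at 6.42 and 12.5 FPKM in SL against 6.33 and 7.82 in uFIB. In FGL 11 reached 1 FPKM on each day and 0 were called in either direction, which is near the shares of all genes. These were 1.19% lower and 3.91% higher at day 12, and 0.984% and 1.15% at day 21. Of the 7 LIF axis genes, *Lifr* and *Il6st* were called lower in SL and SFGL on both days, and *Lif* in SL at day 21. Among all genes 18.2% and 21.5% were lower in SL and SFGL at day 12, and 15.7% and 20.2% at day 21. *Jak2* was called higher in SL and SFGL at day 12 and in SFGL at day 21, against 16.3%, 16.9% and 16.5% of all genes. At day 12 *Il6st* was at 297 FPKM in uFIB and 109 in SL, and *Jak2* at 15.5 and 33.1.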

How the data were processed

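RNA-seq values of 10 stage samples (5 stages) and 8 MEF libraries were used as the authors deposited them, in FPKM. Per the paper's methods and the submitters' processing notes, reads were aligned to mm10 (GRCm38) and FPKM were calculated with Cufflinks, after TopHat for the MEFs; for ESC the notes name Bowtie and HOMER. The deposited FPKM of the stages are 1 value per transcription start site and stage, summed here per gene. The HE column belongs to no sample here and 1 column of per-sample values was therefore not used. Low FPKM values in the MEFs gave the step of 1 read for 15.0% to 19.1% of low genes only, so that no count test was run.

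Genes named beyond the 10 were the 3 highest in ESC of each list, the 3 that changed most each way among genes at 5 FPKM or more, relatives at 5 FPKM or more, the 3 nearest profiles and markers. The members and lists were chosen with earlier results of these data known. Where SL, SFGL or FGL samples were compared, uFIB of the same day was the reference. No test was possible with 1 value per group. The calls were tried on simulated 4-fold changes in genes averaging 5 FPKM or more, and the profile distance on a planted profile. Both check the calculation and do not bear on calls at low FPKM or without replicates. Positions are the authors' loci, counted from 1, checked against GENCODE M21; promoters are from RefSeq (GRCm38.p6). Python 3.11.15, NumPy 2.4.6, pandas 2.3.3 and matplotlib 3.10.9 were used. Alternatives were other pseudocounts, limits, folds and references, upper quartile scaling and the highest start site alone. Some genes of the added neural crest and glial list are not reported here and do not enter its sum.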

Additional observations from a re-analysis of the deposited data

How the results depend on the processing

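No paired analysis was possible because the deposited values combine the 2 replicates of each stage and the MEFs have 1 library per condition; for the same reason the replicate block and leaving out a replicate were not run. None of the alternatives reversed a called direction. Scaled to the same upper quartile, 3 changes that were not called changed sign, those of *Tbx3* in FGL from -0.0225 to 0.0284 at day 12 and from 0.0593 to -0.0259 at day 21, and that of *Klf4* in FGL from 0.0888 to -0.013 at day 21. For the counts, 97 of 122 values over the 10 genes stayed within 1.5 times. The share of all genes was calculated at the main setting only. The counts below therefore show how the calls depend on the setting and cannot be set against other genes. Without the limit of 1 FPKM, which adds genes near 0, the genes lower were 9 from HB to HP (5 with it), 6 from HP to MAC (2), 4 in SFGL at day 12 and 4 at day 21 (2 each), 2 in FGL at day 12 (1), 2 in SL at day 21 (1) and 1 in FGL at day 21 (0), and the genes higher at day 12 were 2 in SFGL and 1 each in SL and FGL, and at day 21 1 in SFGL (0 each with it). With at least 5 FPKM, 4 were lower from MES to HB (7), 3 from HB to HP and 0 from HP to MAC. At 4-fold, 4 were lower from MES to HB, 1 in SL, 1 in SFGL at day 21 and 0 in FGL at day 12. With a pseudocount of 1, 1 was lower from HP to MAC, 0 in FGL at day 12 and 1 in SFGL at day 21. Against the mean of both uFIB libraries, 2 were lower in SL at day 21. With a limit of 5 FPKM, 4 genes were expressed in MES (9), 3 in HB (6) and 0 in HP (2). Values under about 0.1 FPKM rest on an unknown number of reads.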

Other observations

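Among the targets of the core factors, *Spp1*, which encodes the secreted protein osteopontin, was at 63.0 FPKM in ESC, then 1.73 in MES, 0.718 in HB and 25.1 in HP, and 11303 in MAC. *Slc2a3*, the glucose transporter GLUT3, was at 152 FPKM in ESC. In the MEFs *Slc2a3* was at 2.22 FPKM in uFIB, against 52.9 in SL, 52.3 in SFGL and 6.94 in the library labelled FGL at day 12, and at 1.28, 19.9, 49.9 and 1.68 at day 21. It was the 1 gene of the 11 targets called higher in both SL and SFGL on both days, where 2 or 3 of the 11 reached 1 FPKM. Among all genes 16.3% and 14.6% were higher in SL and 16.9% and 16.5% in SFGL at day 12 and day 21. No target was called lower there, against 18.2% and 15.7% of all genes in SL and 21.5% and 20.2% in SFGL.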
